A study of Mus musculus with 39 samples.

Results

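The genes described are 10 genes of the NF-κB pathway: the 5 subunits Nfkb1, Nfkb2, Rel, Rela and Relb, and 5 inhibitors, feedback genes and targets, Nfkbia, Tnfaip3, Tnf, Birc3 and Traf1. They were taken by symbol from a count table of 55011 genes in 39 mouse RNA-seq libraries, and all 10 were found. NF-κB dimers are held in the cytoplasm by inhibitors of the IκB family, enter the nucleus after signals such as tumour necrosis factor or interleukin 1 and drive inflammatory genes, among them genes that shut the pathway off again. A slower, noncanonical branch, started by receptors such as the lymphotoxin β receptor, works through processing of the Nfkb2 precursor and Relb. In muscle the pathway is known for its part in the inflammatory response to injury and in holding back the differentiation of muscle precursors.

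The libraries came from 4 experiments, each with 2 or 3 independent biological replicates a group per the study's design text. In the first, γδ T cells with a Vγ6 antigen receptor, known as a source of interleukin 17A (IL-17A), were sorted from wild-type skeletal muscle 3 days after injury with cardiotoxin, a venom peptide that destroys muscle fibres (n = 3), and from the colonic lamina propria of untreated wild-type mice (n = 3). In the second, whole tibialis anterior muscle was taken 1, 3, 7 and 14 days after cardiotoxin from Tcrd-DTR mice, whose γδ T cells bear the receptor for diphtheria toxin (n = 3, 3, 2 and 3), and from wild-type mice (WT, n = 3 on each day); both genotypes had been given intraperitoneal diphtheria toxin. In the third, wild-type mice received recombinant IL-17A (rIL-17A, n = 2) or PBS (n = 2), each both intraperitoneally and intramuscularly, and cardiotoxin-injured tibialis anterior was taken at day 7. In the fourth, satellite cells, the muscle stem cells, were sorted 1 day after cardiotoxin from toxin-treated Tcrd-DTR (n = 3) and WT mice (n = 3). Sorted libraries were made from 1000 cells after enzymatic digestion and whole-muscle libraries from 2 ng of RNA. Levels are CPM, counts scaled by the library's total, and no test was made across experiments because the preparations differ.

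Libraries held 2372139 to 10974862 counts. The labelled cell types were checked on marker genes. All 10 γδ T cell markers were detected in Vγ6 cells, and their sum was 19834 to 20106 CPM for muscle and 13500 to 14280 CPM for colon cells. Macrophage markers summed to only 14.6 to 27.2 CPM in muscle Vγ6 cells and 15 to 26.1 CPM in colon Vγ6 cells. Other lists were higher in these cells: αβ T cell markers summed to 807 to 868 CPM for muscle and 865 to 936 CPM for colon. B cell markers summed to 154 to 200 and 98.4 to 132 CPM, and fibroblast markers to 39.1 to 62.8 and 190 to 259 CPM. Satellite cells carried all 8 muscle precursor markers, Myod1, Myf5 and Pax7 among them, with sums of 7137 to 7898 CPM in Tcrd-DTR and 8387 to 10164 CPM in WT mice. In whole muscle at day 1 these sums were 4679 to 6587 CPM in Tcrd-DTR and 5534 to 7136 CPM in WT mice. Satellite cells also carried fibroblast markers, mostly Dcn, Col1a1 and Col1a2, which summed to 6885 to 9135 CPM in Tcrd-DTR and 5158 to 7199 CPM in WT mice. In 1 Tcrd-DTR satellite library muscle fibre genes summed to 3309 CPM, against 55.8 to 63.3 CPM in the WT libraries. In whole muscle the γδ T cell markers summed to 3.09 to 6.87 CPM in Tcrd-DTR and 2.43 to 4.7 CPM in WT muscle at day 1, and to 1.82 to 3.3 CPM in Tcrd-DTR and 14 to 20.6 CPM in WT muscle at day 3. The sums were 1.68 to 4.28 CPM in Tcrd-DTR and 1.28 to 11.1 CPM in WT muscle at day 7, and 4.22 to 7.34 CPM in Tcrd-DTR and 8.26 to 10.6 CPM in WT muscle at day 14. The genotypes were thus separated in this sum at days 3 and 14 and overlapped at days 1 and 7. The list includes Cd3e and Cd3g, which other T cells share. Markers of αβ T cells summed to 2.27 to 5.72 CPM in Tcrd-DTR and 6.15 to 10.3 CPM in WT muscle at day 3, also separated. At day 14 they overlapped, at 1.26 to 6.3 and 2.75 to 5.16 CPM. Only 3 of the 10 γδ T cell markers had enough counts to be tested between the genotypes, and 0 were called on any day.

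In GENCODE (mm10) the genes on the minus strand are Nfkb1 at chr3:135584655-135691547, Rel at chr11:23736847-23770970, Relb at chr7:19606217-19629438, Nfkbia at chr12:55489410-55492647. Also on the minus strand are Tnfaip3 at chr10:19000910-19015657, Tnf at chr17:35199381-35202007, Birc3 at chr9:7848699-7873186 and Traf1 at chr2:34941750-34961772. On the plus strand are Nfkb2 at chr19:46304320-46312385 and Rela at chr19:5637483-5648130. Promoter sequence was available from RefSeq (GRCm38.p6) for 8 of the 10 genes, in 11 windows of 300 bases around annotated starts. The κB consensus, the sequence bound by NF-κB dimers, was searched on both strands and matched 6 of these windows, of 4 genes, Nfkbia, Tnfaip3, Rel and Nfkb2, while it was matched in 4.51% of 32851 promoter windows of all genes. The Nfkb2 windows include an overlapping pair that shares a match, so that match enters the count of 6 windows more than once. No match says only that these letters are not in the window. The 130 bases before a RefSeq start are shown for these 4 genes, whose products are an inhibitor, a feedback enzyme and a pair of subunits. They are on the gene's own strand with the matches in capitals.
Nfkbia, chr12:55492648-55492777, minus strand: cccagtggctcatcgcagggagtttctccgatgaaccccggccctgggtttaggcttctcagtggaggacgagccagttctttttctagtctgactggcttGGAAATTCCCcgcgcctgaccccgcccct
Tnfaip3, chr10:19015411-19015540, minus strand: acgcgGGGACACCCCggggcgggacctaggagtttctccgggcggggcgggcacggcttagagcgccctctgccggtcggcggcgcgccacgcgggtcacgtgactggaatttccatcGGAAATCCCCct
Rel, chr11:23770970-23771099, minus strand: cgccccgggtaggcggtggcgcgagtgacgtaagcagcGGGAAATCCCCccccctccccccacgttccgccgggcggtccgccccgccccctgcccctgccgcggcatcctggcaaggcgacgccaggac
Nfkb2, chr19:46304607-46304736, plus strand: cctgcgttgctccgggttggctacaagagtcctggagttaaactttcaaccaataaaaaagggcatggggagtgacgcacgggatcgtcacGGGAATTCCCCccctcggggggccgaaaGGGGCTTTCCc
The match of Nfkbia begins 29 bases before the RefSeq start and those of Tnfaip3 125 and 12 bases before theirs. That of Rel begins 92 bases upstream, and those in the Nfkb2 stretch shown 39 and 11 bases upstream. The match near Rel reads as the consensus in overlapping registers, as does the first match near Nfkb2. In GENCODE the Nfkb2 stretch lies within an exon of a non-coding gene on the opposite strand. By the GENCODE positions given above, the stretches of Tnfaip3 and Nfkb2 also lie inside these genes. For them the RefSeq start used here is downstream of the GENCODE start.

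Across the 14 groups, sorted cells held the highest level of every one of the 10 genes and whole muscle of none. For 6 genes a Vγ6 group stood highest, and for the other 4 the WT satellite cells did; the same split was found with TMM-scaled values. Sorted cells went through tissue digestion and whole muscle did not, so cell type and preparation cannot be told apart in this order, and in whole muscle fewer cells of a type and less RNA per cell cannot be told apart either.

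**Figure D1:**
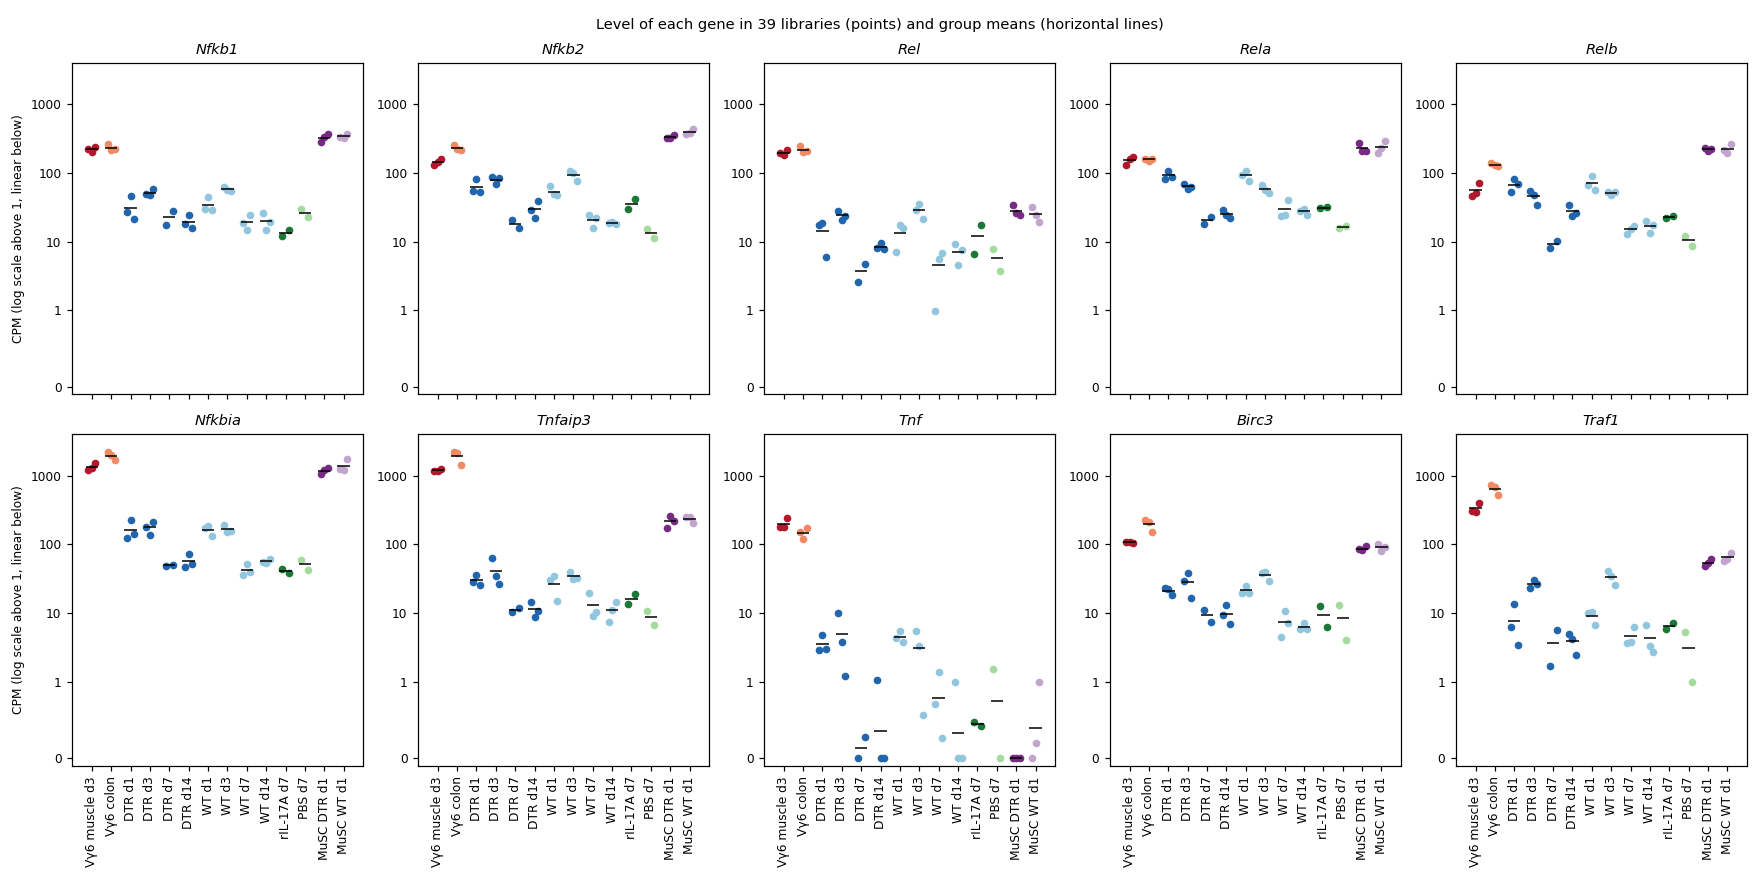
CPM of each gene (vertical axis, logarithmic above 1 CPM and linear below) in the 39 libraries (points) of 14 groups (horizontal axis), with group means as horizontal lines. Nfkb1, Nfkb2, Rela and Relb were highest in satellite cells, the other 6 genes in Vγ6 cells, and Tnf was at or near 0 in satellite cells.

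Among the subunits, Nfkb1 encodes a precursor of a DNA-binding subunit with no transactivation domain of its own. It averaged 326 ± 43.9 CPM in Tcrd-DTR and 345 ± 22.6 CPM in WT satellite cells (SD, n = 3 each). Vγ6 cells followed with 224 ± 17.3 CPM in muscle and 236 ± 26.2 CPM in colon (SD, n = 3 each), and the highest whole-muscle group, WT at day 3, held 58.3 ± 3.59 CPM (SD, n = 3). The libraries of the pair of satellite groups overlapped, as did those of the pair of Vγ6 groups, whereas satellite cells and Vγ6 cells did not overlap. Nfkb2, the precursor subunit of the noncanonical branch, averaged 337 ± 15.8 and 398 ± 36.3 CPM in Tcrd-DTR and WT satellite cells, 146 ± 13.8 CPM in muscle Vγ6 cells and 232 ± 18.8 CPM in colon Vγ6 cells (SD, n = 3 each). None of these 4 groups overlapped its neighbour in the order. The lowest whole-muscle mean of Nfkb2 was 13.4 ± 3.02 CPM, in PBS-treated muscle (SD, n = 2). The counts of Nfkb2 may include reads of Psd, which overlaps it on the opposite strand, since the strand setting of the counting is not given in the sources used here; Psd itself averaged 0.277 to 41.3 CPM over the groups.

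Rel, the c-Rel subunit known from lymphocytes, had a different order. Muscle Vγ6 cells held 198, 182 and 217 CPM and colon Vγ6 cells 249, 201 and 210.2 CPM. Satellite cells held 34.2, 26.3 and 24.7 CPM in Tcrd-DTR and 32.2, 24.8 and 19.7 CPM in WT mice. Every Vγ6 library thus stood above every satellite library, and the satellite libraries overlapped those of whole muscle at day 3, which averaged 24.2 ± 3.64 CPM in Tcrd-DTR and 28.7 ± 6.97 CPM in WT mice (SD, n = 3 each). Rela, the main transactivating subunit of the canonical branch, spanned a smaller range. It averaged 231 ± 38.2 and 239.9 ± 52.6 CPM in Tcrd-DTR and WT satellite cells and 153 ± 20.8 and 158 ± 5.69 CPM in muscle and colon Vγ6 cells (SD, n = 3 each). Its highest whole-muscle means were those of day 1, 92.6 ± 14.1 CPM in Tcrd-DTR and 92.8 ± 15.4 CPM in WT muscle (SD, n = 3 each). Relb, the partner of processed Nfkb2, averaged 221 ± 8.75 and 225 ± 37 CPM in Tcrd-DTR and WT satellite cells (SD, n = 3 each). In muscle Vγ6 cells Relb was at 45.8, 51.1 and 71.1 CPM, a range that overlapped those of whole muscle at days 1 and 3, whereas colon Vγ6 cells stood above them at 142, 129.7 and 128 CPM.

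Nfkbia encodes IκBα, the inhibitor that NF-κB induces and that returns the dimers to the cytoplasm. It was at 1195, 1297 and 1502 CPM in muscle Vγ6 cells and 2221, 1985 and 1679 CPM in colon Vγ6 cells. Satellite cells reached the same range, with 1048, 1202 and 1286 CPM in Tcrd-DTR and 1254, 1217 and 1719.5 CPM in WT mice. Muscle Vγ6 libraries overlapped the satellite libraries, and all 12 sorted libraries stood above the 27 whole-muscle libraries. Tnfaip3, the ubiquitin-editing enzyme that ends signalling from tumour necrosis factor receptors, separated the sorted cells instead. It was at 1182, 1174 and 1249 CPM in muscle Vγ6 cells and 2198, 2099 and 1419.8 CPM in colon Vγ6 cells, against 170.4, 259.6 and 221 CPM in Tcrd-DTR and 251, 253 and 207 CPM in WT satellite cells. The ratio of Tnfaip3 to Nfkbia CPM within a library, not divided by transcript length, was 0.909 ± 0.079 in muscle and 0.964 ± 0.108 in colon Vγ6 cells, and 0.183 ± 0.029 in Tcrd-DTR and 0.176 ± 0.048 in WT satellite cells (SD, n = 3 each). In whole muscle the group means of that ratio lay between 0.158 and 0.398.

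Tnf, the cytokine that both activates NF-κB and is one of its targets, was above 100 CPM in every Vγ6 library and below 10 CPM in every other library. Muscle Vγ6 cells held 176, 181 and 241 CPM and colon Vγ6 cells 152, 118 and 170.4 CPM. Summed over the whole-muscle libraries of a group, Tnf had 50 counts in Tcrd-DTR and 72 in WT mice at day 1. The day 3 sums were 70 counts in Tcrd-DTR and 51 in WT mice, the day 7 sums 3 and 20 counts, and the day 14 sums 3 and 4 counts. With rIL-17A and PBS it had 5 and 12 counts. Tcrd-DTR satellite cells had 0 counts of Tnf in 17207002, which allows up to 0.174 CPM, and WT satellite cells had 6 counts. Pooled over the group, muscle Vγ6 cells were at least 1133-fold higher than Tcrd-DTR satellite cells, with the satellite cells set at the limit that 0 counts allow, 3 counts over the group. Intervals and floors cover counting error only.

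Birc3 and Traf1 encode proteins that bind the tumour necrosis factor receptor complex, an inhibitor of apoptosis with ubiquitin ligase activity and an adaptor. Birc3 averaged 107 ± 1.15 CPM in muscle and 197 ± 42.2 CPM in colon Vγ6 cells, and 86.8 ± 5.99 and 90.6 ± 10.4 CPM in Tcrd-DTR and WT satellite cells (SD, n = 3 each). Traf1 averaged 335 ± 57.1 CPM in muscle and 645 ± 105 CPM in colon Vγ6 cells, and 54 ± 6.45 and 64.6 ± 9.66 CPM in Tcrd-DTR and WT satellite cells (SD, n = 3 each). Both were thus higher in every Vγ6 library than in any satellite library, by a narrow margin for Birc3, where the lowest muscle Vγ6 library held 106 CPM and the highest satellite library 100.9 CPM. Per gene, 7 to 11 of the 13 neighbouring pairs in the order of the 14 group means overlapped, so most steps in these orders were within the spread of the libraries.

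Muscle Vγ6 cells and whole muscle can be set side by side at day 3 in wild-type mice. They came from separate experiments, and the whole muscle was that of mice given diphtheria toxin. The ratio of mean CPM, Vγ6 cells over whole muscle, was 64.4 for Tnf, 35.1 for Tnfaip3, 9.9 for Traf1, 7.99 for Nfkbia and 6.94 for Rel. It was 3.85 for Nfkb1, 3.02 for Birc3, 2.62 for Rela, 1.54 for Nfkb2 and 1.08 for Relb. Relb was the gene for which the libraries of the sorted Vγ6 cells and of this whole muscle overlapped. For WT satellite cells and WT muscle at day 1 the same ratio was 10 for Nfkb1, 7.39 for Nfkb2, 3.14 for Relb, 2.59 for Rela and 1.9 for Rel. It was 8.91 for Tnfaip3, 8.53 for Nfkbia, 7.14 for Traf1 and 4.24 for Birc3. Tnf ran the other way, with 0.396 CPM in satellite cells and 4.5 CPM in whole muscle.

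The makeup of the subunit transcripts was compared per length, as each subunit's share of the summed counts per kilobase of its longest GENCODE transcript. Rel made up 13.9% ± 0.92 of subunit transcripts in muscle Vγ6 cells and 12% ± 0.504 in colon Vγ6 cells, against 1.18% ± 0.198 in Tcrd-DTR and 1.01% ± 0.342 in WT satellite cells (SD, n = 3 each). The size of these shares depends on the length used: with no division by length Rel made up 25.6% in muscle and 22.4% in colon Vγ6 cells with means of up to 9.96% in the other groups, and with the mean transcript length 8.45% in muscle and 7.4% in colon Vγ6 cells with means of up to 2.87% in the others. Rela led in whole muscle at day 1, with 42.5% ± 2.2 in Tcrd-DTR and 42.6% ± 0.684 in WT muscle (SD, n = 3 each). The share of Relb was 8.83% ± 1.22 in muscle Vγ6 cells and 16.6% ± 0.299 in colon Vγ6 cells (SD, n = 3 each), a difference of -7.79 percentage points. Those of Nfkb2 were 19.7% ± 0.508 in muscle and 24.6% ± 0.664 in colon. For all 5 subunits the shares of the muscle and colon libraries did not overlap, with Nfkb1, Rel and Rela higher and Nfkb2 and Relb lower in muscle. The exact permutation test, 2-sided, gave p = 0.1 for each, the smallest that 3 against 3 libraries allow. The shares of a library add up to a fixed total, so they are not independent, and lower shares of some subunits raise those of others. In mean CPM Nfkb1, Rel and Rela were not higher in muscle, at 224, 199 and 153 CPM against 236, 220 and 158 CPM in colon.

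**Figure D2:**
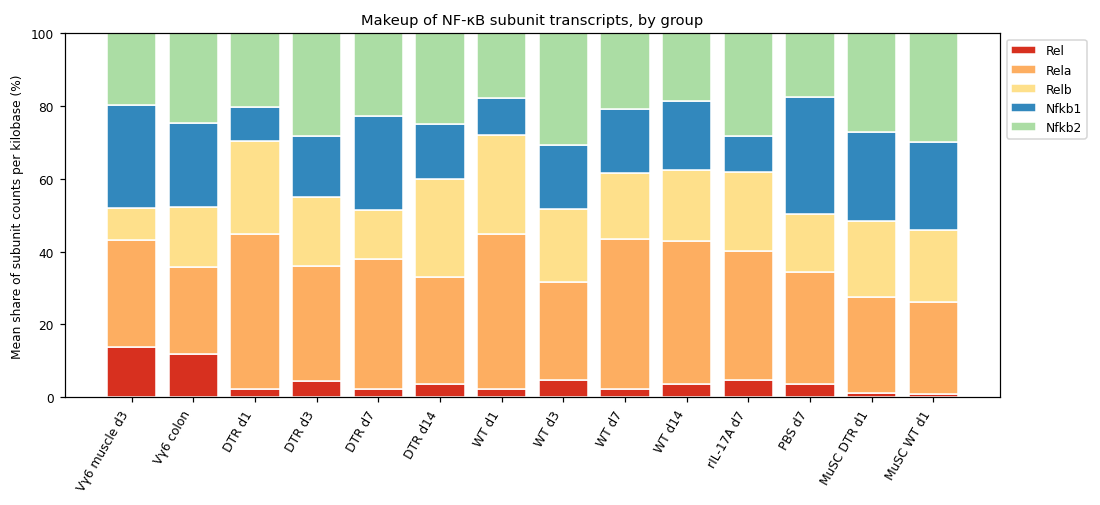
Stacked bars of the mean share (%) of each NF-κB subunit in the subunit counts per kilobase of longest transcript, for 14 groups along the horizontal axis. Rel takes 13.9% in muscle and 12% in colon Vγ6 cells and under 5% in the other groups, and Nfkb1 takes 9.95% with rIL-17A against 32.1% with PBS.

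The Vγ6 libraries from injured muscle were set against those from colon to ask how the cells of the injured tissue differ from their colonic counterparts. In muscle Vγ6 cells 6 of the 10 genes were lower (Relb, Traf1, Birc3, Nfkb2, Tnfaip3 and Nfkbia) and 1, Tnf, was higher. The threshold was a Benjamini-Hochberg adjusted p under 0.05 in edgeR's quasi-likelihood test over 11907 genes, and 24.5% of all genes tested passed it, 12.3% higher and 12.2% lower in muscle. The median log2 change of the 10 genes was -0.64, against -0.01 over all genes tested. Tissue, injury and digestion of different tissues cannot be told apart in this comparison.

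Relb changed most, at the values given above, without overlap between muscle and colon. It fell by 1.28 ± 0.15 on the log2 scale (SE), a 2.44-fold lower level in muscle (adjusted p = 1.87e-05). Its partner Nfkb2 held 132, 145 and 159.8 CPM in muscle cells, against 253, 227 and 217 CPM in colon cells. The groups did not overlap, and the log2 change was -0.70 ± 0.10 (SE, adjusted p = 0.000149). The canonical subunits did not pass the test: Nfkb1 had a log2 change of -0.10 ± 0.10 (95% interval -0.32 to 0.12), Rel one of -0.17 ± 0.10 (-0.39 to 0.05) and Rela one of -0.07 ± 0.11 (-0.31 to 0.16), and the libraries overlapped for all 3. With the first muscle library left out the value for Rela was 0.04.

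Traf1 was at 306, 298 and 401 CPM in muscle Vγ6 cells and 729.6, 677 and 527 CPM in colon Vγ6 cells, and Birc3 at 108, 108 and 106 CPM in muscle cells, against 227, 215 and 149 CPM in colon cells. Neither gene's groups overlapped, and the log2 changes were -0.98 ± 0.14 for Traf1 (SE, adjusted p = 0.000262) and -0.91 ± 0.14 for Birc3 (SE, adjusted p = 0.000207). The inhibitors Tnfaip3 and Nfkbia, whose values are given above, had log2 changes of -0.70 ± 0.15 (SE, adjusted p = 0.00586) and -0.59 ± 0.11 (SE, adjusted p = 0.000931), again without overlap. For these 6 lower genes every library left out in turn kept the call. Tnf went the other way, with a log2 change of 0.42 ± 0.14 (SE, adjusted p = 0.0423) and all 3 muscle libraries above the 3 colon libraries. Over all genes 21.5% were separated in this way upwards and 18.2% downwards. The call of Tnf was lost when 1 of 4 libraries was left out. Without colon library 2 or muscle library 3 the log2 change was smaller, 0.27 (adjusted p = 0.202) or 0.26 (adjusted p = 0.227). Without colon library 1 or muscle library 2 it was larger, 0.44 (adjusted p = 0.0681) or 0.48 (adjusted p = 0.0551), and passed no longer with the fewer libraries.

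**Figure D3:**
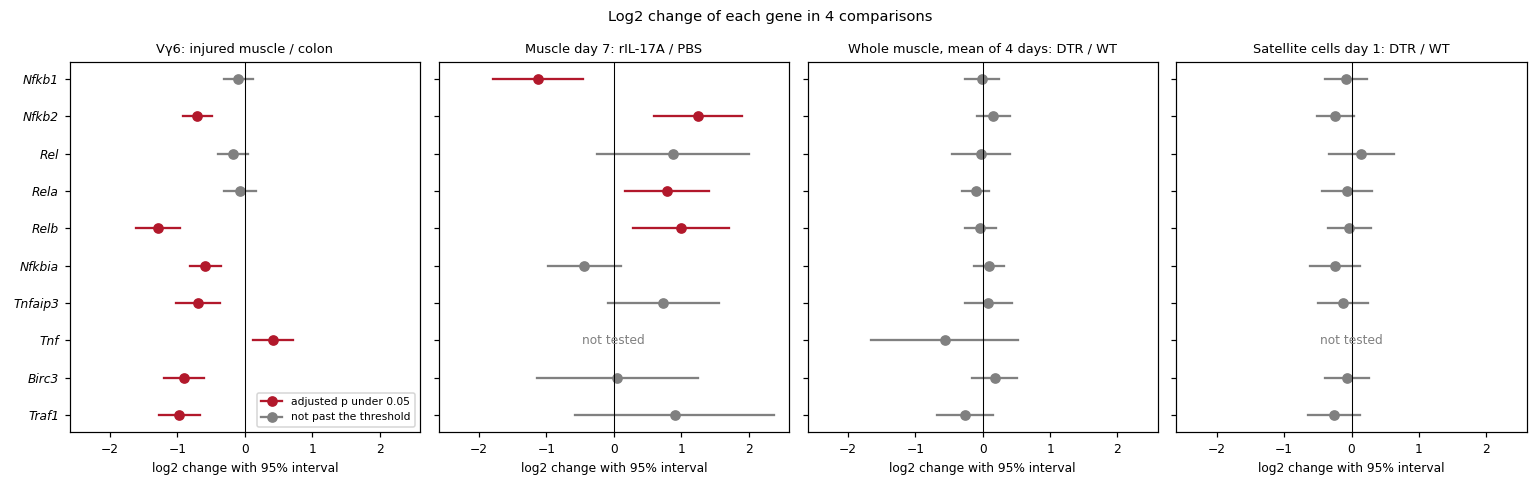
Log2 change with its 95% interval (horizontal axis) of each gene (vertical axis) in 4 comparisons fitted with edgeR; red marks an adjusted p under 0.05. In Vγ6 cells 6 genes pass left of 0 and Tnf right of it, with rIL-17A Nfkb2, Relb and Rela lie right and Nfkb1 left, and no gene passes in either comparison of Tcrd-DTR with WT.

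Other genes of the pathway were counted from lists of inhibitors, upstream receptors and kinases, targets and immediate early genes. Of 22 tested targets 14 were lower and 1 higher in muscle Vγ6 cells, with a median log2 change of -1.12. The survival gene Bcl2l1 held 74.7 ± 9.18 CPM in muscle cells and 296 ± 20.2 CPM in colon cells (SD, n = 3 each; log2 change -2.02), the costimulatory receptor gene Tnfrsf9 9.7 ± 4.22 and 116 ± 16.8 CPM (-3.63) and Ptgs2, which encodes the inducible cyclooxygenase, 5.16 ± 2.85 and 77.2 ± 17.8 CPM (-3.94). The 4 of 15 tested inhibitors and 9 of 30 tested upstream genes that passed were near the 24.5% of all genes. Among the inhibitors 3 were lower and 1 higher; Nfkbiz, an atypical nuclear IκB protein, had a log2 change of -1.16 and Irak3 one of -0.88, while Nfkbie, which encodes IκBε, was higher at 0.46. Of the upstream genes 6 were higher and 3 lower: the interleukin 1 receptor gene Il1r1 was higher, with a log2 change of 0.53, as was the TWEAK receptor gene Tnfrsf12a at 1.96, and Traf3ip2, the adaptor of the IL-17 receptor, was lower at -0.78. Immediate early genes fell too, 16 of 21 lower and 0 higher with a median of -1.70, among them Fos (-2.50), Fosb (-2.02) and Dusp1 (-1.88). These genes, which respond to digestion of tissue as well as to signals, summed to 11693 to 13900 CPM in muscle and 31662 to 34874 CPM in colon Vγ6 cells, and their part in the fall of the NF-κB genes was not tested.

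In whole muscle the NF-κB genes changed over the time course. In WT muscle the mean CPM of every gene was higher at day 3 than at days 7 and 14, while at day 1 some genes, Traf1 among them, were lower than at day 3 and others higher in mean CPM. All 10 genes passed the F-test over the 4 days in WT muscle, as did 53.7% of 18264 genes tested, and 9 of 10 in Tcrd-DTR muscle, as did 56.2%. Birc3 missed the threshold in Tcrd-DTR muscle (adjusted p = 0.0642), and passed it with library size alone (adjusted p = 0.000158), with low counts kept in (adjusted p = 0.00936) and when day 3 library 3, day 7 library 1 or day 14 library 2 was left out. Nfkb1 lost its call there with DESeq2 (adjusted p = 0.0983), with its size factors (adjusted p = 0.102) and when day 3 library 3, day 14 library 1 or day 14 library 3 was left out. Rel lost its call with the replicate block (adjusted p = 0.0586) and without day 7 library 1 (adjusted p = 0.0657). In WT muscle the calls of Tnf and Tnfaip3, with adjusted p of 0.0222 and 0.0257, were the weakest, and with libraries left out in turn their adjusted p ran up to 0.066 and 0.103. DESeq2 did not call Tnfaip3 (adjusted p = 0.0748). Levels below are CPM of the library total, whereas fold changes come from TMM-scaled counts, and the scaling matters here: with library size alone the median of all genes was 0.40 at day 3 against day 1 and -0.74 at day 7 against day 3.

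From day 1 to day 3 the 10 genes did not move together in WT muscle. Traf1 was at 40.6, 35 and 26 CPM at day 3, against 9.93, 10.4 and 6.8 CPM at day 1, a log2 change of 1.51 ± 0.37 (SE, adjusted p = 0.00274). Rela was lower, at 67.4, 56.4 and 52 CPM at day 3 against 94.1, 108 and 76.8 CPM at day 1, and Relb was at 53.1, 48.4 and 53.9 CPM against 67.9, 89.8 and 57.5 CPM. Neither pair of groups overlapped, and the log2 changes were -1.05 ± 0.19 for Rela (SE, adjusted p = 0.000104) and -0.85 ± 0.21 for Relb (SE, adjusted p = 0.00319). With library size alone Relb had a log2 change of -0.47 and missed the threshold (adjusted p = 0.129). These 3 of 10 genes compare with 18.9% of all genes called, 9.58% higher and 9.36% lower. Nfkb1, Nfkb2, Rel and Birc3 had higher CPM in every day 3 library than in any day 1 library, with log2 changes of 0.37, 0.41, 0.69 and 0.34 that did not pass; 31.7% of all genes had such a separation upwards and 8.94% downwards. With library size alone Nfkb1 and Nfkb2 passed, at log2 changes of 0.76 (adjusted p = 0.0338) and 0.82 (adjusted p = 0.00567). Nfkbia and Tnfaip3 had log2 changes of -0.37 and -0.02, neither past the threshold, and with library size alone both were above 0, at 0.03 and 0.37.

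**Figure D4:**
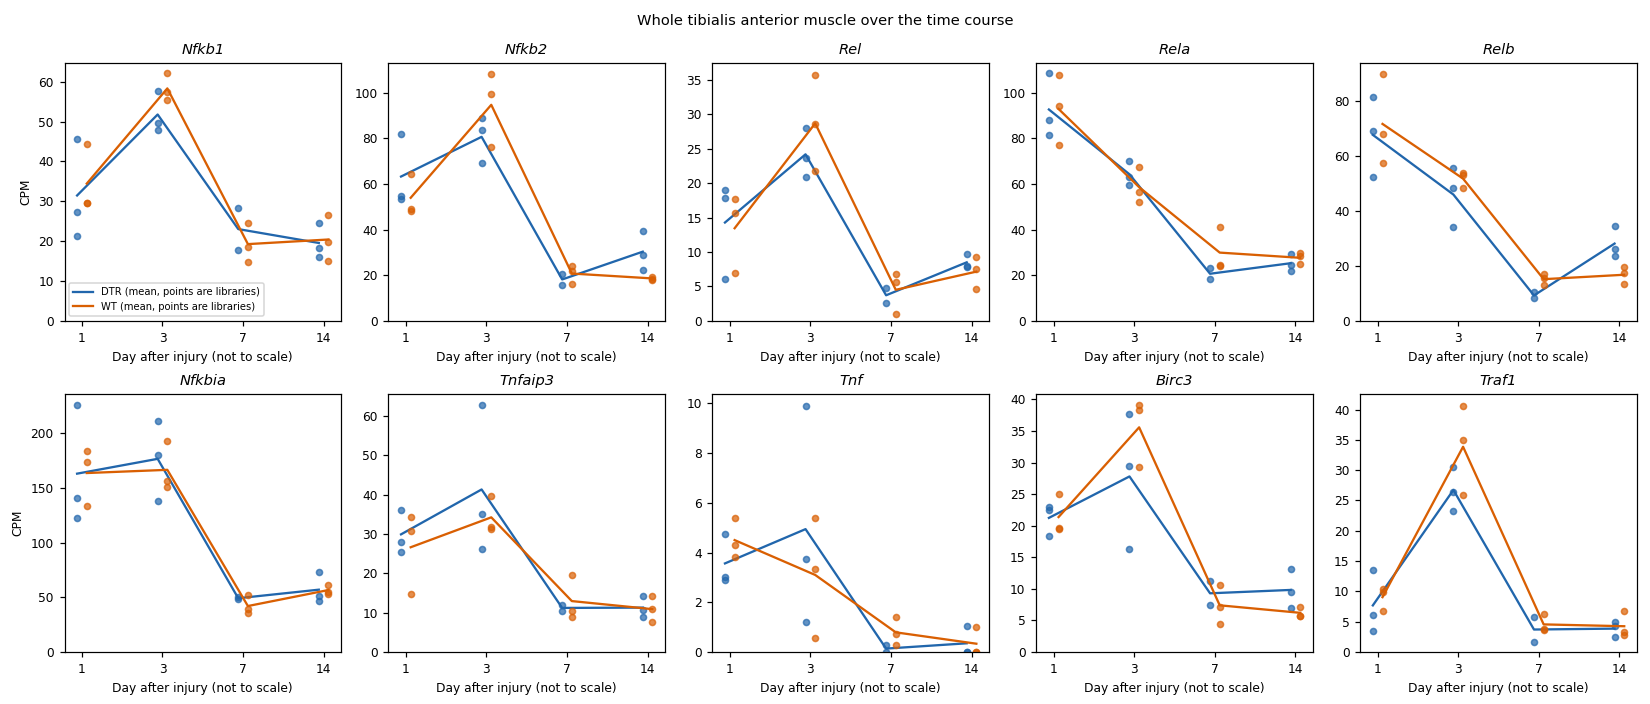
CPM of each gene (vertical axes, from 0, scaled per gene) in whole tibialis anterior muscle on days 1, 3, 7 and 14 after injury (horizontal axis, not to scale), with points for libraries and lines through the group means of Tcrd-DTR (blue) and WT (orange). Traf1 is highest at day 3 in both genotypes and Rela at day 1, and at day 14 the 3 Tcrd-DTR libraries of Relb stand above the 3 WT libraries.

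Between day 3 and day 7 the fall was general. At day 7 in WT muscle 7 of the 10 genes were lower than at day 3 and none higher, where 36.9% of all genes passed, 19% lower and 17.9% higher, and the median log2 change was -1.16 against 0.04 over all genes tested. Traf1 fell to 3.7, 3.76 and 6.21 CPM, a log2 change of -2.12 ± 0.38 (SE, adjusted p = 1.98e-05). Rel was at 0.996, 5.69 and 6.87 CPM at day 7 against 28.6, 35.7 and 21.8 CPM at day 3 (-1.89 ± 0.41, SE, adjusted p = 0.000298), and Nfkb2 at 24.2, 16.1 and 21.9 CPM against 108, 99.3 and 76.3 CPM (-1.39 ± 0.23, SE, adjusted p = 6.83e-06). For each of these genes the days did not overlap, as for 43% of all genes with the day 7 libraries below. Nfkbia, the inhibitor, was at 35.3, 51.8 and 39.1 CPM against 193, 151 and 156 CPM, a log2 change of -1.19 ± 0.21 (SE, adjusted p = 2.13e-05). Birc3, Relb and Nfkb1 had log2 changes of -1.46 (adjusted p = 0.000248), -0.99 (adjusted p = 0.000359) and -0.82 (adjusted p = 0.00517). Rela, Tnfaip3 and Tnf did not pass, at -0.21, -0.59 and -1.13; with library size alone Rela and Tnfaip3 did, at -0.97 and -1.41. Tnfaip3 also passed without day 7 library 1 (-1.15, adjusted p = 0.00701) and with low counts kept in (-0.78, adjusted p = 0.0475), and Tnf ran from -1.90 to -0.45 with libraries left out. Between day 7 and day 14 none of the 10 passed (17.3% of all genes did), with adjusted p from 0.372 to 0.963. In CPM of the library total Nfkbia alone was separated, at 55, 53.4 and 61.6 CPM at day 14 against 35.3, 51.8 and 39.1 CPM at day 7, as were 15.8% of all genes upwards. Divided by the TMM factors, 0.833 to 0.896 at day 14 and 0.711 to 0.903 at day 7, its libraries overlapped.

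The other lists fell at day 7 as well. Of 33 tested upstream genes 20 were lower and 1 higher than at day 3 in WT muscle, of 16 inhibitors 9 were lower, and of 30 targets 15 were lower and 2 higher. Over all genes tested 36.9% were called at this step, 19% lower and 17.9% higher. Tnfrsf1b, which encodes a receptor of tumour necrosis factor, was at 10.9 ± 1.88 CPM at day 7 and 168 ± 49.1 CPM at day 3 (SD, n = 3 each), and Tnfrsf11a, the receptor of RANK ligand, at 0.823 ± 0.86 and 32.4 ± 6.31 CPM. Sod2, the mitochondrial superoxide dismutase gene, went the other way, at 425 ± 21.3 CPM against 195 ± 35 CPM. Macrophage markers fell between day 3 and day 7 too, all 10 called lower. Their summed level in WT muscle was 1105 to 2449 CPM at day 1, 8512 to 14074 CPM at day 3, 443 to 695 CPM at day 7 and 126 to 165 CPM at day 14. At day 3 against day 1, 9 of 10 were called higher, while Rela and Relb were lower and Traf1 was higher. Over all genes 9.58% were called higher and 9.36% lower at that step. At day 14 against day 7, 8 of the 10 macrophage markers were called lower, while none of the NF-κB genes passed (17.3% of all genes did). The summed level of muscle fibre genes was 24805 to 77791 CPM at day 3 and 150130 to 176473 CPM at day 7. The part of either in the changes of the NF-κB genes was not tested.

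Tcrd-DTR muscle was set against WT muscle of the same day to ask what depletion of γδ T cells changes. None of the 10 genes passed the test on any day, nor in the mean over the 4 days. At day 1 edgeR called 0 genes of 18264 (777 at an unadjusted p under 0.05), and DESeq2 called 0 too; at day 3 it called 0 (873) and DESeq2 2. It called 2.01% of all genes at day 7 and 0.0767% at day 14, and the mean over days gave 0.0274%. The 95% intervals of the mean over days were -0.26 to 0.24 for Nfkb1, -0.08 to 0.40 for Nfkb2, -0.31 to 0.10 for Rela, -0.26 to 0.20 for Relb and -0.13 to 0.32 for Nfkbia on the log2 scale. They were wider for Rel (-0.45 to 0.41), Tnfaip3 (-0.26 to 0.43), Birc3 (-0.16 to 0.51), Traf1 (-0.68 to 0.15) and Tnf (-1.66 to 0.53), which had fewer counts.

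The smallest unadjusted p-values were those of Relb and Nfkb2, genes of the noncanonical branch, at day 14, and Relb differed in the opposite direction at day 7. Relb at day 14 was at 34.6, 23.6 and 26.2 CPM in Tcrd-DTR and 19.8, 13.4 and 17.3 CPM in WT muscle. At day 7 it was at 8.17 and 10.4 CPM in Tcrd-DTR and 12.9, 15.5 and 17.2 CPM in WT muscle. The groups did not overlap on either day, higher in Tcrd-DTR at day 14 and lower at day 7, with log2 changes of 0.72 ± 0.23 (SE, adjusted p = 0.421) and -0.48 ± 0.25 (SE, adjusted p = 0.273). Nfkb2 at day 14 was at 29, 22.3 and 39.6 CPM in Tcrd-DTR and 18.5, 19.3 and 17.9 CPM in WT muscle, also without overlap, with a log2 change of 0.71 ± 0.25 (SE, adjusted p = 0.538). Rela at day 7 was at 18.3 and 23 CPM in Tcrd-DTR and 24, 24.5 and 41.2 CPM in WT muscle, with a log2 change of -0.28 ± 0.22 (SE, adjusted p = 0.48). The smallest adjusted p of the 10 genes at day 7 in edgeR's test, 0.264, was that of Nfkbia. It was at 48.4 and 50 CPM in Tcrd-DTR and 35.3, 51.8 and 39.1 CPM in WT muscle, with overlap. Its log2 change ran from 0.33 to 0.64 with libraries left out. Of all genes 8.28% were separated upwards at day 14 and 20.9% downwards at day 7. The interaction of genotype with time, which 0.608% of all genes passed, gave adjusted p of 0.167 for Relb, 0.408 for Nfkb2 and up to 0.974 for the other 8 genes.

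From the pathway lists, the genes below differed between the genotypes. Over all genes 2.01% were called at day 7, 0.0767% at day 14 and 0.608% in the interaction. The TWEAK receptor gene Tnfrsf12a, a starter of the noncanonical branch, was at 65.9 ± 20.3 CPM in Tcrd-DTR and 14.2 ± 1.99 CPM in WT muscle at day 14 (SD, n = 3 each; log2 change 2.19, adjusted p = 4.21e-06), the 1 of 33 upstream genes to pass. Junb, an immediate early gene, was lower in Tcrd-DTR at day 7 (-1.35, adjusted p = 0.00317) and higher at day 14 (1.23, adjusted p = 0.0141). Fos, another immediate early gene, was higher in Tcrd-DTR at day 7 (1.52, adjusted p = 0.0343), so that of 20 tested genes of that list 1 was higher and 1 lower at day 7 and 1 was higher at day 14. Tnfrsf12a and Junb passed the interaction (adjusted p = 0.000717 for each), as did Atf3 (adjusted p = 0.0278). Nos2, the inducible nitric oxide synthase, was the 1 of 30 targets to pass, lower in Tcrd-DTR at day 7 with 0.143 ± 0.0548 CPM against 1.89 ± 0.719 CPM in WT muscle (SD, n = 2 and 3). The Tcrd-DTR mean lay below 0.146 CPM, the level of 3 counts over that group, so depth limits this value.

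The rIL-17A experiment asked what added cytokine does to regenerating muscle at day 7. Of the 9 genes tested, Nfkb2, Relb and Rela were higher and Nfkb1 was lower with rIL-17A, while 34.1% of 12896 genes passed, 18.1% higher and 16.1% lower. Tnf had too few counts to be tested.

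Nfkb2 was at 29.7 and 41.7 CPM with rIL-17A and 15.6 and 11.3 CPM with PBS, a log2 change of 1.25 ± 0.30 (SE, adjusted p = 0.00739). Relb was at 22.2 and 24 CPM with rIL-17A and 12.2 and 8.73 CPM with PBS (1.00 ± 0.33, SE, adjusted p = 0.0339), and Rela at 31.2 and 31.7 CPM with rIL-17A and 15.9 and 16.9 CPM with PBS (0.79 ± 0.29, SE, adjusted p = 0.0485). In each of these the lower rIL-17A library stood above the higher PBS library, as it did for 40.5% of all genes. Nfkb1 ran the other way, at 12.3 and 14.8 CPM with rIL-17A and 29.9 and 23.3 CPM with PBS (-1.12 ± 0.31, SE, adjusted p = 0.014), with both rIL-17A libraries below both PBS libraries, as for 28.4% of all genes. Within a library the ratio of Nfkb2 to Nfkb1 CPM was 2.42 and 2.82 with rIL-17A and 0.485 and 0.521 with PBS. Per length, Nfkb1 made up 9.95% ± 0.056 of subunit transcripts with rIL-17A and 32.1% ± 1.12 with PBS (SD, n = 2 each), for which the exact permutation test, 2-sided, gave p = 0.333, the smallest that 2 against 2 allow.

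The call of Rela was the weakest, and ended with the replicate block (adjusted p = 0.0662), with DESeq2's size factors (adjusted p = 0.0545), with low counts kept in (adjusted p = 0.0598) and with DESeq2 (adjusted p = 0.0907). DESeq2 called 2 of the 9 genes and did not call Relb (adjusted p = 0.0603). Leaving out 1 library leaves a lone library in its group, which is then assumed to vary like the other group's pair. So fitted, 1 gene passed without rIL-17A library 1 and none without rIL-17A library 3, and 6 passed without PBS library 1 and 3 without PBS library 3. The log2 changes moved less, between 1.08 and 1.45 for Nfkb2, 0.82 and 1.21 for Relb, 0.67 and 0.88 for Rela and -1.25 and -0.98 for Nfkb1. Rel, Tnfaip3 and Traf1 had log2 changes of 0.88, 0.74 and 0.90, with intervals of -0.25 to 2.01, -0.09 to 1.57 and -0.57 to 2.38, and none passed. With libraries left out they ran from 0.16 to 1.45, 0.49 to 1.06 and 0.20 to 2.48, and without PBS library 1 all 3 passed (adjusted p = 0.0213, 0.0476 and 0.00864). Nfkbia was at 43.8 and 38.6 CPM with rIL-17A and 59.1 and 42.6 CPM with PBS, a log2 change of -0.44 that did not pass (adjusted p = 0.192). Birc3 had a log2 change of 0.05, which ran from -0.69 to 1.07 when libraries were left out. The PBS muscle of this experiment and the toxin-treated WT muscle of the time course, both from day 7, stood at 26.6 and 19.3 CPM for Nfkb1 and at 16.4 and 29.9 CPM for Rela; they were not compared by a test.

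Among the listed genes, Tnip1, which encodes a partner of the Tnfaip3 enzyme, was at 29.9 ± 2.25 CPM with rIL-17A and 6.38 ± 0.925 CPM with PBS (SD, n = 2 each; log2 change 2.09, adjusted p = 0.000764), and its relative Tnip2 was lower, at 8.59 ± 1.25 and 21.7 ± 0.487 CPM (-1.47, adjusted p = 0.00654). Of 12 tested inhibitors 2 were higher and 1 lower, a share below the 34.1% of all genes that passed. The lymphotoxin β receptor gene Ltbr was at 31.8 ± 4.3 CPM with rIL-17A and 9.1 ± 2.75 CPM with PBS (1.65, adjusted p = 0.00244) and the tumour necrosis factor receptor gene Tnfrsf1a at 48.8 ± 9.7 and 20 ± 0.991 CPM (1.13, adjusted p = 0.00577), while Myd88, the adaptor of interleukin 1 and Toll-like receptors, was lower (-1.41, adjusted p = 0.00774). Of 31 upstream genes 4 were higher and 3 lower, a share below that of all genes too, and of 20 targets 3 were higher and 4 lower, a share near it. Nos2 was at 14.7 ± 0.483 CPM with rIL-17A and 0.0715 ± 0.101 CPM with PBS (SD, n = 2 each). The PBS mean lay below 0.201 CPM, the level of 3 counts over that group. Macrophage markers summed to 575 to 717 CPM with rIL-17A and 1476 to 2005 CPM with PBS, and endothelial markers to 331 to 363 CPM with rIL-17A and 164 to 190.3 CPM with PBS. Muscle precursor markers summed to 8262 to 8581 CPM with rIL-17A and 2581 to 3069 CPM with PBS, but nearly all of that sum was Des, at 8145 and 2631 CPM. Of the 7 of these markers tested 2 were higher and 2 lower, with a median log2 change of -0.85. The part of these cell types in the changes of the subunits was not tested.

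Satellite cells of Tcrd-DTR mice were set against those of WT mice to ask whether depletion of γδ T cells alters them a day after injury. Of the 9 genes tested (Tnf had too few counts) none passed, and edgeR called 0 of 12081 genes (719 at an unadjusted p under 0.05; DESeq2 called 11). The 9 log2 changes lay between -0.26 and 0.14, and their intervals between -0.64 and 0.63. Relb had the change nearest to 0, -0.03 (95% interval -0.35 to 0.28). Nfkb2 was at 327, 329 and 355 CPM in Tcrd-DTR and 374, 381 and 440.1 CPM in WT satellite cells, with all 3 Tcrd-DTR libraries below the WT libraries, as for 6.93% of all genes. Its log2 change was -0.24 ± 0.13 (SE, adjusted p = 0.823). Nfkbia had a log2 change of -0.25 (95% interval -0.62 to 0.12), with overlapping libraries, and none of the 4 lists of other pathway genes held a gene past the threshold.

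The genes whose pattern over the 14 group means was most like that of each NF-κB gene were taken by Pearson's r of log2(CPM + 1) among 11324 genes. For Nfkbia they were Nfkbiz (r = 0.988), Stx11 (0.987) and Yju2 (0.985). For Birc3 they were Icam1 (0.99), an adhesion molecule, Riok1 (0.989) and Nfkbia itself (0.983). Tnf was most like Ltb4r1 (0.987), Nfkbid (0.985) and Rmnd5b (0.984), and Tnfaip3 like Fosl2 (0.988), Ttc39b (0.988) and Nedd9 (0.988). Traf1 was most like Celf2 (0.994), Tap2 (0.989) and Smc5 (0.988), and Rel like Kmt2e (0.989), Itpr2 (0.989) and Rapgef6 (0.988). For Nfkb1, Nfkb2, Rela and Relb the nearest genes were Dbr1 (0.986), Dhx15 (0.991), Slc11a2 (0.99) and Zbtb17 (0.986). Within the 10 genes r ranged from 0.32 for Tnf and Relb to 0.983 for Nfkbia and Birc3, and Relb was close to Rela (0.958) and Nfkb2 (0.957). These correlations are descriptions over 14 means that fall into sorted cells and whole muscle, so the difference between preparations enters all of them.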

How the data were processed

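PolyA RNA was measured in 39 libraries. The authors deposited 1 table of raw counts by gene symbol. Per the submitters' processing notes the tools were featureCounts (Subread 2.0.0) and STAR 2.7.3a with mm10; the sources used here give no annotation, strand or multi-mapping setting, so Birc3, which has a related neighbouring gene, Nfkb1 and Nfkb2, which overlap other genes, are uncertain to that degree. The members and lists were chosen with earlier results of these data known. Each experiment was fitted on its own with edgeR 4.0.16 in R 4.3.3 (quasi-likelihood F-test, robust, TMM, genes kept by filterByExpr on the groups at min.count 10 and min.total.count 15), the time course in 1 fit of 8 group means over 23 libraries with 1 shared estimate of the spread, and p-values were adjusted over all genes tested (Benjamini-Hochberg, 0.05). SE is the log2 change divided by the square root of F. Alternatives were DESeq2 1.42.0, scaling by its size factors or by library size alone, keeping genes of low count, each library left out, fits on the compared groups alone and the replicate number as a block. On simulated counts with 100 genes changed 2-fold and 100 changed 4-fold, 57 and 87 were recovered in the Vγ6 comparison of 11907 genes, 26 and 69 with rIL-17A (12896) and 47 and 87 in satellite cells (12081). In the time course (18264 genes) the numbers were 13 to 32 of the 2-fold and 51 to 65 of the 4-fold changes for Tcrd-DTR against WT within a day, fewest of the 2-fold ones at day 14, and 15 to 18 and 50 to 63 for the steps between days in WT muscle. Gene positions and transcript lengths came from GENCODE vM21. All 10 genes were always named; from each list up to 3 genes past the threshold with the smallest p were taken per comparison, of which some are left out of the text, and 3 alike genes per member. No replicates were copies of one another (lowest chi-square per degree of freedom 3.88). Replicate numbers did not pair the samples.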

Additional observations from a re-analysis of the deposited data

How the results depend on the processing

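Of 1011 recomputed values of 75 single-gene results, 952 kept their direction and side of the threshold, 35 lost and 14 gained the call and 10 changed sign. The sign changed only where the call was not past the threshold: at day 3 against day 1 in WT muscle for Nfkbia with library size alone (0.028) and for Tnfaip3 with library size alone (0.37), with the replicate block (0.026) and with libraries left out (-0.31 to 0.17), for Rela in Vγ6 cells (-0.16 to 0.038), for Tnfaip3 at day 3 in Tcrd-DTR against WT (-0.12 to 0.51) and for Birc3 with rIL-17A (-0.69 to 1.07). No member was called in Tcrd-DTR against WT under any alternative, while the counts of all genes moved: day 1 gave 17 with no filter; day 3 gave 1 with library size alone, 34 with no filter, 2 with DESeq2, 8 with the block and 0 to 14 without single libraries; day 7 gave 608 with library size alone, 994 with DESeq2, 137 with the block, 92 when fitted alone and 26 to 729; day 14 gave 55 with no filter, 67 with DESeq2, 36 with the block, 80 when fitted alone and 2 to 47; the mean of days gave 11, 30 and 40 with library size alone, no filter and DESeq2, 2 with the block and 1 to 16; the interaction gave 211, 519 and 582 with these 3 and 21 to 237; and satellite cells gave 101 with no filter, 11 with DESeq2 and 0 to 2. With rIL-17A DESeq2 called 2 members and leaving out libraries gave 0 to 6 members and 2266 to 5266 genes. Day 14 against day 7 in WT muscle gave 1879 to 3986 genes. The difference in the share of Relb between muscle and colon Vγ6 cells was -6.51 points with no division by length. Library size alone moved the share of calls that were higher to 80.9% at day 3 against day 1 (50.6% with TMM), 15.4% at day 7 against day 3 (48.4%), 4.11% at day 7 in Tcrd-DTR against WT (31.8%) and 63.5% with rIL-17A (52.9%), and DESeq2's size factors moved it to 40.7% at day 14 against day 7 (23.9%). The cause was not tested. Replicate numbers were shared by 19 pairs across groups with r from -0.066 to 0.192, 1 over 0.1, so they were not read as pairing. Depth limits Tnf, which had 3 and 20 counts at day 7 and 3 and 4 at day 14 in Tcrd-DTR and WT muscle. At day 14 the pooled 95% counting intervals overlapped, at 0.0612 to 0.867 and 0.0994 to 0.934 CPM. At day 7 they did not, at 0.0301 to 0.427 CPM in Tcrd-DTR and 0.511 to 1.29 CPM in WT muscle. These intervals leave out the spread between libraries. Single libraries of the genotypes overlapped at day 7, and Tnf passed the test on neither day.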
